A study of Saccharomyces cerevisiae with 6 samples.

Results

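The genes described here are 10 genes of budding yeast, Saccharomyces cerevisiae, that bring pyruvate into mitochondrial metabolism. They are the mitochondrial pyruvate carrier genes MPC1, MPC2 and MPC3, the pyruvate dehydrogenase complex genes PDA1, PDB1, LAT1, LPD1 and PDX1, and the pyruvate carboxylase genes PYC1 and PYC2. They were chosen by function, and as part of a description of the same arrays, with the zymolyase against control difference of each gene already known. For that reason their differences are given as a description without a test, and the count of genes that moved supports nothing by itself. Each gene had 1 probe set annotated to it alone, and all 10 were among the 5394 probe sets for 5349 S. cerevisiae genes that passed a filter on low signal.

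Pyruvate, the end product of glycolysis, is made in the cytosol and enters the mitochondrial matrix through the pyruvate carrier of the inner membrane. In yeast the carrier is a pair of unlike subunits. Mpc1 joins either Mpc2, the partner known from cells growing on glucose, or Mpc3, the partner known from respiring cells. In the matrix the pyruvate dehydrogenase complex turns pyruvate into acetyl-CoA, which feeds the tricarboxylic acid cycle. Pyruvate carboxylase adds carbon dioxide to pyruvate in the cytosol and makes oxaloacetate, which refills that cycle and feeds gluconeogenesis and aspartate synthesis.

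The study compared 3 untreated control samples with 3 samples given zymolyase, a glucanase preparation used to strip the wall from yeast cells. Zymolyase was used at 30 U/ml for 10 min at 37 °C. Both groups came from the strain labelled BY4743, given as a MATa/α strain with the alleles his3Δ1, leu2Δ0, met15Δ0, ura3Δ0 and lys2Δ0, grown in rich YPD medium for 2 days at 25 °C. The labels do not give the temperature of the control cells during the digestion step, so the enzyme and a step to 37 °C cannot be told apart for any gene below. Separate cultures are not stated for the replicates, so all errors and p-values measure the spread between these samples, which may be technical.

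Each sample was read on its own Affymetrix array, and the values are MAS5 signals in intensity units, with ± the SD of 3 arrays. Arrays of a group correlated at 0.985 to 0.987 on the log2 scale, and arrays of different groups at 0.938 to 0.947. The signal of STE3, a gene of the α mating type that an a/α diploid represses, was 3035 ± 89.7 in the control, and that of URA3, labelled as deleted, was 1802 ± 66.8. These levels go against the labelled genotype, so the strain is named only by its label. A log2 difference is zymolyase minus control, with the standard error (SE) of the limma fit. The number of arrays limits the precision, and fewer cells of a kind and less RNA per cell cannot be told apart in such bulk samples. The array scaling also hides any change in total messenger RNA.

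With zymolyase, 7 of the 10 genes were higher and 3 were lower, and in none did the ranges of the groups overlap. The same held for 73.3% of all probe sets tested, 33.4% higher and 39.9% lower, and since the genes were chosen on this contrast nothing is read from the count. The differences ran from -0.87 for MPC1 to 2.92 for MPC3 on the log2 scale, with a median of 0.64, beside a median of -0.08 over all probe sets tested. Within a group the coefficient of variation was between 1.51% and 17.3%, with the largest value for MPC3 in the control. The lowest signal of any of these genes on any array was 8.35 times the background level of that array, defined as the 99th percentile of the second-species probe sets on that array.

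**Figure D1:**
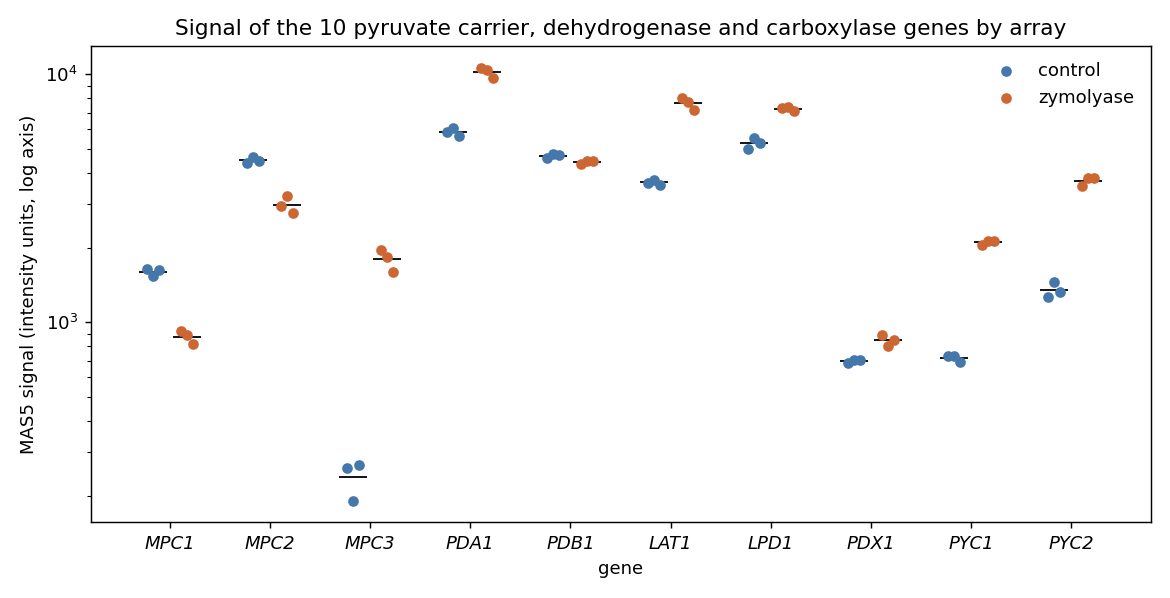
MAS5 signal (vertical log axis, intensity units) of each of the 10 genes (horizontal axis) on the 3 control and 3 zymolyase arrays; each point is an array and each black line the group mean. MPC3 shows the widest gap between groups, MPC1, MPC2 and PDB1 lie lower with zymolyase, and the other 6 genes lie higher.

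The carrier genes split. MPC3, the gene of the respiratory partner subunit, had signals of 259, 191 and 266 on the control arrays and 1963, 1828 and 1593 on the zymolyase arrays. The lowest zymolyase array lay 5.99-fold above the highest control array. The means were 238 ± 41.4 and 1795 ± 187, a log2 difference of 2.92 ± 0.12 SE or 7.58-fold, which was rank 4 from the highest among the 5394 probe sets. Over all 9 pairings of a zymolyase with a control array the fold ran from 5.99 to 10.3, and the width of that range came mostly from the control arrays, where replicate 2 was the lowest.

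MPC2, the gene of the partner subunit known from fermenting cells, moved the other way. Its signals were 4382, 4640 and 4462 on the control arrays and 2937, 3228 and 2755 with zymolyase. Every zymolyase array was below every control array, with a mean of 2974 ± 238 against 4495 ± 132 and a log2 difference of -0.60 ± 0.06 SE. The differences of MPC3 and MPC2 were 3.52 apart on the log2 scale. Whether transcripts of either gene reach the other's probe set was not tested, so the size of that gap is uncertain.

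MPC1, the gene of the subunit shared by both forms of the carrier, was lower as well. Its control signals were 1637, 1535 and 1627 and its zymolyase signals 919, 884 and 816, so that the groups were separated by at least 1.67-fold. The means were 1599 ± 56.3 and 873 ± 52.5, a log2 difference of -0.87 ± 0.06 SE or a 1.83-fold lower signal. Signals of different probe sets are not on a common scale, so these values do not say which partner gene had more transcript in either group.

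The 5 genes of the pyruvate dehydrogenase complex did not move as a block. Their log2 differences ran from -0.09 for PDB1 to 1.06 for LAT1, with a median of 0.47. LAT1 encodes the dihydrolipoamide acetyltransferase core, which passes the acetyl group to coenzyme A. Its signals were 3659, 3762 and 3564 in the control and 8003, 7733 and 7192 with zymolyase, the largest difference of the 5 genes. The log2 difference was 1.06 ± 0.06 SE, or 2.09-fold.

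PDA1 and PDB1 encode the α and β subunits of the component that decarboxylates pyruvate, and the α subunit carries the serine phosphorylated by the complex's kinases. PDA1 gave 5844, 6081 and 5655 in the control and 10640, 10392 and 9683 with zymolyase, a log2 difference of 0.80 ± 0.06 SE. PDB1 gave 4607, 4764 and 4712 in the control and 4334, 4472 and 4460 with zymolyase. The lowest PDB1 control array was only 1.03-fold above the highest zymolyase array, and the log2 difference was -0.09 ± 0.05 SE, near the median of all probe sets. The genes of these partner subunits therefore differed by 0.89 on the log2 scale in how their signals moved.

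LPD1 encodes dihydrolipoamide dehydrogenase, the flavoprotein that the complex shares with α-ketoglutarate dehydrogenase and the glycine decarboxylase system. Its signals were 4975, 5552 and 5267 in the control and 7315, 7408 and 7109 with zymolyase, a log2 difference of 0.47 ± 0.05 SE. PDX1, which tethers this dehydrogenase to the acetyltransferase core, gave 685, 702 and 704 in the control and 890, 799 and 845 with zymolyase. That was a log2 difference of 0.28 ± 0.06 SE, with the groups 1.14-fold apart at their nearest arrays.

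Both pyruvate carboxylase genes were higher. PYC1 gave 729, 732 and 689 in the control and 2056, 2133 and 2118 with zymolyase, a log2 difference of 1.55 ± 0.06 SE or 2.93-fold. PYC2 gave 1259, 1457 and 1320 in the control and 3548, 3807 and 3818 with zymolyase, a log2 difference of 1.47 ± 0.06 SE or 2.77-fold. The groups were at least 2.81-fold apart for PYC1 and 2.43-fold apart for PYC2. The genes are close paralogs of similar coding length, 3537 and 3543 nt, and whether transcripts of either reach the other's probe set was not tested, so the likeness of their differences is uncertain.

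Zymolyase replicate 3 was the lowest zymolyase array for 6 of the 10 genes, namely MPC1, MPC2, MPC3, PDA1, LAT1 and LPD1, and for 36.1% of all probe sets tested. With any array left out, the log2 difference stayed between 2.77 and 3.01 for MPC3, between -0.66 and -0.55 for MPC2 and between -0.10 and -0.07 for PDB1.

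**Figure D2:**
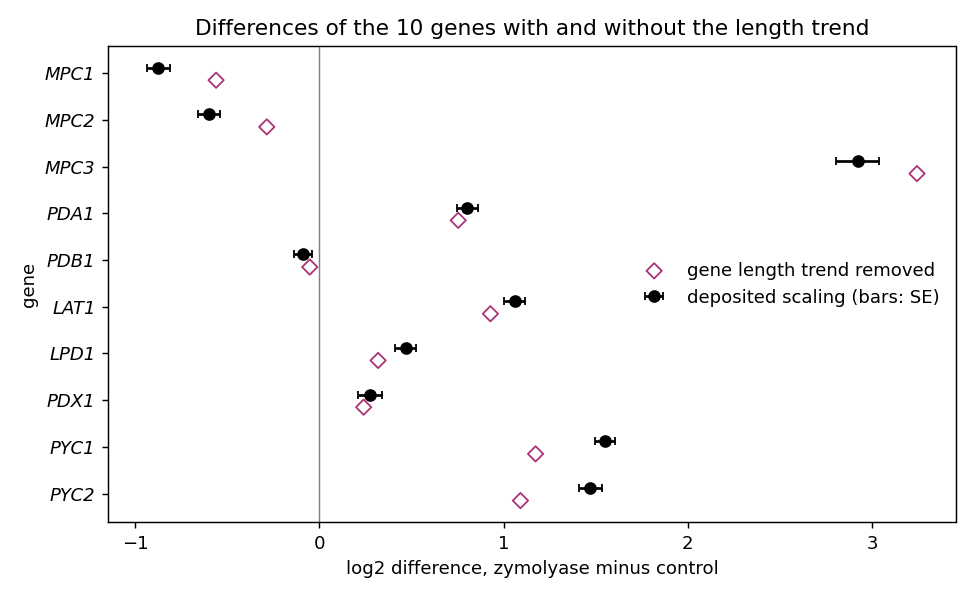
Log2 difference, zymolyase minus control (horizontal axis), of each of the 10 genes (vertical axis); filled points with SE bars use the deposited scaling and open diamonds have the gene length trend removed. The signs are the same in both, while MPC1 and MPC2 lie nearer to 0, MPC3 lies further up and PYC1 and PYC2 lie lower with the trend removed.

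Differences across the whole array were lower for short than for long genes. The median log2 difference was -0.36 in the shortest of 10 near-equal classes of gene length, lowest at -0.43 in the next, and 0.32 in the longest. The carrier genes are short, with coding lengths of 393 nt for MPC1, 390 nt for MPC2 and 441 nt for MPC3, the dehydrogenase genes lie between 1101 and 1500 nt, and the carboxylase genes are long. With the trend removed from each array, the difference was -0.56 for MPC1, -0.28 for MPC2 and 3.24 for MPC3. It was 1.17 for PYC1, 1.09 for PYC2, 0.93 for LAT1, 0.75 for PDA1 and 0.32 for LPD1. MPC3 thus lay opposite to the median of its length class, while MPC1, MPC2, PYC1 and PYC2 lay on the side to which genes of their length moved.

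A measure of RNA integrity moved with the groups. For ACT1, the actin gene, the 3′ control probe set over the 5′ one gave a ratio of 2.04 ± 0.16 in the control and 2.44 ± 0.11 with zymolyase (exact permutation test, two-sided, 6 arrays, p = 0.1, which is the lowest value possible here). The mean ratio was higher with zymolyase for all 8 control genes that have such probe sets. The shift was largest for SRB4, from 6.51 ± 0.32 to 18.0 ± 10.9, with 30.5 on zymolyase replicate 2. It was smallest for TDH1, from 1.15 ± 0.03 to 1.24 ± 0.07. For EAF5 the higher mean rested on zymolyase replicate 1, without which its mean was 2.96 against 3.20 in the control. The part of RNA integrity in the differences of the 10 genes was not tested.

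**Figure D3:**
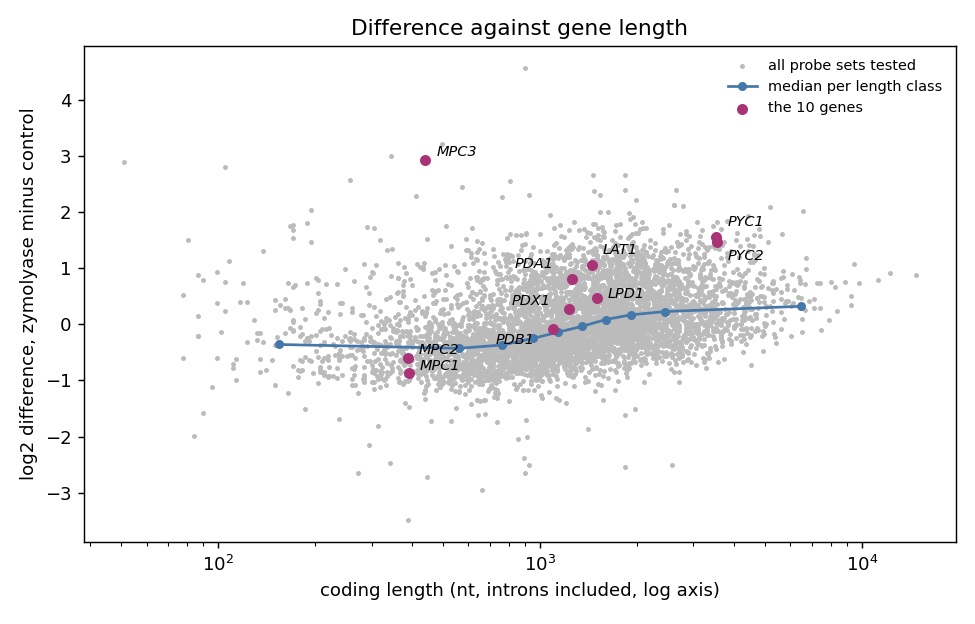
Log2 difference, zymolyase minus control (vertical axis), against coding length in nt (horizontal log axis) for all 5394 probe sets tested (grey), with the median in each of 10 length classes (blue line, drawn at the geometric middle of the class) and the 10 genes (purple). The medians run from -0.43 in the second-shortest class to 0.32 in the longest, and MPC3 stands at 2.92 among short genes while PYC1 and PYC2 stand at 1.55 and 1.47 among long genes.

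The genes whose signals followed MPC3 most closely were taken as the 3 with the smallest Euclidean distance between log2 signals over the 6 arrays, each gene centred on its own mean. They were ATG41, an autophagy gene, at a distance of 0.83, TIR1, a cell wall mannoprotein gene, at 0.88 and PRY3, a gene of a wall-associated protein, at 0.92. Their log2 differences of 2.27, 2.26 and 2.40 were all below the 2.92 of MPC3. With 2 groups of arrays such a distance measures mainly the size of the group difference.

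No gene in the RefSeq table overlapped any of the 10 genes. Of 20 nearest genes on either side, 18 were tested and above background in at least 1 group. Of these 7 rose, 6 fell and 5 did not pass, against 71.5% called among all probe sets, 32.6% higher and 38.9% lower. Beside MPC3, YAP1802, a clathrin adaptor gene, rose by 1.44 ± 0.07 SE on the log2 scale (limma, adjusted p = 2.6e-09), while LSC2, a subunit gene of succinyl-CoA ligase, had a log2 difference of -0.08 (adjusted p = 0.2). Beside MPC2, SOL3, a pentose phosphate pathway gene, had a log2 difference of -0.83 ± 0.07 SE (adjusted p = 2.7e-07), and beside PYC2, the autophagy gene ATG12 one of -1.19 ± 0.09 SE (adjusted p = 7.5e-08), opposite in sign to PYC2. YBR221W-A, next to PDB1, was below the background level on all 3 arrays of each group and is not counted.

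Around the 10 genes, 73 further genes of pyruvate formation, use and control were listed, and 72 passed the filter on low signal. SIP4 was below the background level defined above on all 3 zymolyase arrays and CIT3 on 2 arrays of each group, and neither passed the test. Of the 72 genes, 34 rose, 20 fell and 18 did not pass. That made 75% called, close to the 71.5% of all probe sets. The directions differed, since 32.6% of all probe sets rose and 38.9% fell, while the lists held more rises than falls. This lean was not tested. The median log2 difference of the 72 genes was 0.18, against -0.08 over all probe sets tested. With the length trend removed 28 of them rose and 22 fell, with a median of 0.05. In that setting 1555 of the 5394 probe sets rose and 2161 fell, with a median of -0.11.

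The enzymes that switch the dehydrogenase complex off and on were unequal. PKP1, a kinase that phosphorylates the α subunit Pda1, rose from 128 ± 7.64 to 284 ± 22.0 (log2 difference 1.15 ± 0.11 SE, adjusted p = 9.9e-07). PKP2, the other kinase, fell from 333 ± 5.89 to 260 ± 56.5 (-0.38 ± 0.14 SE, adjusted p = 0.024). That call rested on few arrays, since it was lost without control replicate 1 (adjusted p = 0.073), without control replicate 2 (0.0502) and without zymolyase replicate 2 (0.094), where the difference was -0.19, and also when the variance prior had no intensity trend (0.079). PTC5, a phosphatase of the complex, rose from 462 ± 27.0 to 824 ± 45.6 (0.83 ± 0.07 SE, adjusted p = 4.0e-07). PTC6, the other phosphatase, had a log2 difference of -0.13 ± 0.09 SE and did not pass (adjusted p = 0.18, and 0.038 with the length trend removed, where it was -0.21). Of these 4 genes 2 rose, 1 fell and 1 did not pass, with a median of 0.35.

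Among 9 genes of lipoate attachment and of other enzymes that carry lipoate or share Lpd1, 2 rose, 6 fell and 1 did not pass, with a median of -0.23. With the length trend removed 3 rose and 5 fell, and GCV3, the lipoate carrier of the glycine decarboxylase system, turned from a fall (-0.15, adjusted p = 0.019) to a rise (0.17, adjusted p = 0.019). The fall of GCV3 was also lost with quantile normalization (adjusted p = 0.101), without control replicate 1 (0.0704) and without zymolyase replicate 3 (0.0547). Without that removal both rises were those of the substrate-binding enzymes of complexes that use Lpd1. KGD1, of α-ketoglutarate dehydrogenase, rose from 856 ± 20.8 to 2061 ± 24.6 (1.27 ± 0.05 SE, adjusted p = 1.1e-09). GCV2, the glycine decarboxylase, rose from 3378 ± 117 to 7233 ± 124 (1.10 ± 0.05 SE, adjusted p = 1.9e-09). KGD1 and GCV2 are long genes, of 3045 and 3105 nt. Their differences with the length trend removed were 0.92 and 0.75. KGD2, the lipoate-bearing core of α-ketoglutarate dehydrogenase, gave 3768 ± 158 in the control and 3655 ± 253 with zymolyase, which did not pass (-0.05 ± 0.06 SE, adjusted p = 0.51, and 0.037 at -0.16 with the length trend removed). LIP5, lipoate synthase, and AIM22, a lipoate ligase, fell by 0.46 and 0.57 on the log2 scale (adjusted p = 0.00015 and 0.00013).

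Among 8 genes of cofactor supply, 2 rose, 3 fell and 3 did not pass, with a median of -0.01. BPL1, the ligase that attaches biotin to pyruvate carboxylase and other enzymes, rose from 225 ± 11.9 to 403 ± 11.3 (0.84 ± 0.09 SE, adjusted p = 1.7e-06). YIA6, a mitochondrial NAD carrier, rose from 106 ± 16.3 to 215 ± 22.0 (1.03 ± 0.14 SE, adjusted p = 2.9e-05). YEA6, also a mitochondrial NAD carrier, gave 614 ± 64.0 in the control and 599 ± 59.0 with zymolyase. It did not pass (-0.04 ± 0.09 SE, adjusted p = 0.74). FLX1, linked to flavin supply of mitochondria, fell from 382 ± 40.5 to 191 ± 35.3 (-1.01 ± 0.13 SE, adjusted p = 1.8e-05). THI80, which makes the thiamine cofactor that the dehydrogenase and pyruvate decarboxylase need, had a log2 difference of -0.53 ± 0.07 SE (adjusted p = 2.9e-05).

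Outside the dehydrogenase complex, pyruvate reaches acetyl-CoA through pyruvate decarboxylase, aldehyde dehydrogenase and acetyl-CoA synthetase. Of 9 listed genes of this bypass, which include mitochondrial aldehyde dehydrogenases and the regulator PDC2, 6 rose, 1 fell and 2 did not pass, with a median of 0.26. ALD4, the main mitochondrial aldehyde dehydrogenase, rose from 1216 ± 30.8 to 4021 ± 144 (1.73 ± 0.05 SE, adjusted p = 3.0e-10), and ALD6, its cytosolic counterpart, from 1280 ± 9.60 to 3669 ± 124 (1.52 ± 0.05 SE, adjusted p = 3.0e-10). PDC5, a minor pyruvate decarboxylase, had a log2 difference of 0.55 ± 0.10 SE (adjusted p = 0.0004). Whether transcripts of the related gene PDC1 reach the PDC5 probe set was not tested. PDC1, the major pyruvate decarboxylase, rose from 19265 ± 1424 to 23035 ± 2207 (0.26 ± 0.08 SE, adjusted p = 0.0091), a call lost with the length trend removed (0.05, adjusted p = 0.56) and without control replicate 3 (0.20, adjusted p = 0.052). ACS1, an acetyl-CoA synthetase, fell from 349 ± 22.9 to 249 ± 29.4 (-0.49 ± 0.10 SE, adjusted p = 0.00084). ACS2, also an acetyl-CoA synthetase, rose from 3773 ± 143 to 4700 ± 541 (0.31 ± 0.07 SE, adjusted p = 0.002). The call of ACS2 was lost with the length trend removed (0.05, adjusted p = 0.54). With the length trend removed, 3 genes of this list rose and 1 fell, with a median of 0.05.

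Of 7 genes that form pyruvate, 5 rose, 1 fell and 1 did not pass, with a median of 0.34. MAE1, the mitochondrial malic enzyme, which makes pyruvate inside the matrix without the carrier, rose from 406 ± 49.9 to 993 ± 27.4 (1.30 ± 0.09 SE, adjusted p = 3.5e-08). PYK2, the minor pyruvate kinase, rose from 760 ± 49.0 to 1316 ± 75.1 (0.79 ± 0.07 SE, adjusted p = 3.5e-07), and CDC19, the major one, from 19689 ± 821 to 24883 ± 1618 (0.34 ± 0.06 SE, adjusted p = 0.00035). DLD1, a mitochondrial lactate dehydrogenase, had a log2 difference of 0.57 ± 0.05 SE (adjusted p = 5.4e-07). The differences with the length trend removed were 1.04 for MAE1, 0.64 for PYK2, 0.19 for CDC19 and 0.36 for DLD1, and all 4 stayed past the threshold. In that setting 4 genes of the list rose and 2 fell, with a median of 0.19.

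Of 12 measured genes that use acetyl-CoA or oxaloacetate or carry related acids, 3 rose, 5 fell and 4 did not pass, with a median of -0.05. CIT1, the mitochondrial citrate synthase, gave 6010 ± 152 in the control and 6524 ± 285 with zymolyase, which did not pass (0.12 ± 0.05 SE, adjusted p = 0.062). CIT1 passed without zymolyase replicate 3 (0.15, adjusted p = 0.026), and its difference was -0.01 with the length trend removed. MDH1, the mitochondrial malate dehydrogenase, rose from 8001 ± 172 to 11007 ± 522 (0.46 ± 0.05 SE, adjusted p = 6.4e-06). OAC1, a mitochondrial carrier of oxaloacetate, fell from 393 ± 18.6 to 197 ± 10.9 (-0.998 ± 0.09 SE, adjusted p = 5.7e-07). The oxodicarboxylate carrier genes ODC1 and ODC2 had log2 differences of 0.49 ± 0.09 SE and -0.71 ± 0.07 SE (adjusted p = 0.00031 and 2.0e-06).

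Mitochondrial synthesis of branched-chain amino acids starts from pyruvate in the matrix. Of its 7 genes 6 rose, 0 fell and 1 did not pass, with a median of 0.51, and with the length trend removed 5 rose and 0 fell. ILV6, the regulatory subunit of acetolactate synthase, rose from 1184 ± 186 to 2690 ± 65.7 (1.20 ± 0.09 SE, adjusted p = 1.4e-07). ILV2, its catalytic subunit, was the gene that did not pass. It gave 1081 ± 40.2 in the control and 1210 ± 111 with zymolyase (0.16 ± 0.07 SE, adjusted p = 0.062). With the length trend removed its difference was -0.10. ILV5, ILV3 and LEU4, enzymes further along the pathway, had log2 differences of 0.75, 0.60 and 0.51 (adjusted p = 3.1e-08, 4.0e-07 and 8.5e-06).

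Of 16 regulators of respiratory carbon use, 8 rose, 3 fell and 5 did not pass, with a median of 0.22. HAP4, the activating subunit of the Hap complex, which switches on respiratory genes, rose from 2457 ± 114 to 3100 ± 75.5 (0.34 ± 0.05 SE, adjusted p = 9.5e-05). The genes of its DNA-binding subunits went both ways. HAP2 and HAP5 rose by 0.93 ± 0.08 SE and 0.91 ± 0.12 SE on the log2 scale (adjusted p = 4.6e-07 and 1.7e-05), while HAP3 fell from 412 ± 13.5 to 250 ± 27.6 (-0.72 ± 0.09 SE, adjusted p = 1.7e-05). ADR1, an activator of genes for non-fermentable carbon, rose from 76.9 ± 7.73 to 147 ± 13.3 (0.94 ± 0.15 SE, adjusted p = 9.8e-05), and MIG1, a repressor acting on glucose, from 307 ± 28.6 to 569 ± 45.7 (0.89 ± 0.09 SE, adjusted p = 1.8e-06). With the length trend removed 6 regulators rose and 5 fell. The differences were then 0.14 for HAP4 (adjusted p = 0.03), -0.40 for HAP3, 0.53 for ADR1 and 0.74 for MIG1. Those of HAP2 and HAP5 were larger than before, at 1.14 and 1.16.

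**Figure D4:**
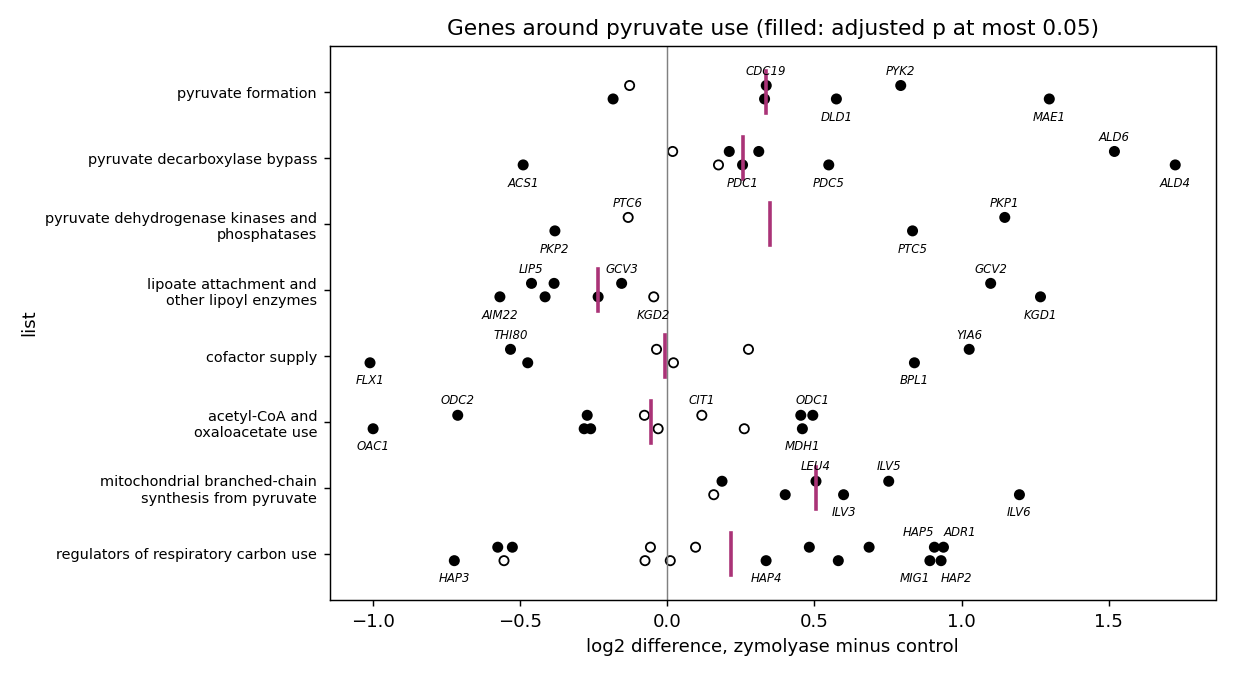
Log2 difference, zymolyase minus control (horizontal axis), of the 72 measured genes around pyruvate use, grouped by list (vertical axis, points staggered for legibility); filled points had an adjusted p of at most 0.05, and purple bars are list medians. List medians run from -0.23 for lipoate attachment and other lipoyl enzymes to 0.51 for branched-chain synthesis, and 54 of the points are filled.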

How the data were processed

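RNA from 6 samples, about 500 ng each, was labelled from the 3′ end and hybridised to 1 array per sample, per the labels. The table deposited by the authors holds linear signal intensities, 1 per probe set and array; the submitters' processing notes name MAS5 without a version. The deposited scaling was kept. Groups came from the sample titles. Of 10928 probe sets, 5498 had 1 S. cerevisiae gene by the platform annotation and the RefSeq table of assembly R64, and 1747 had genes absent from that table, taken as the second species on the array. Probe sets were tested where the mean signal exceeded the 90th percentile of second-species means, 10.1, which left 5394. Where a gene had several, the brightest was used. The fit used limma 3.58.1 (R 4.3.3) on log2 signals with no offset (lmFit, then eBayes, intensity trend), adjusted by Benjamini-Hochberg over all 5394, threshold 0.05. Lengths are coding lengths, introns included. The length trend was removed per array by local regression (span 0.5, degree 1) on log2 length. On simulated arrays with 5394 probe sets, the fit found 95 of 100 log2 changes of size 1 and 68 of 100 of size 0.5, with 7 false calls. Only those probe sets were changed there, with independent noise, whereas 71.5% were called in the data. The simulated rates therefore need not hold for the data.

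The genes, the lists and the rule for naming genes were chosen with earlier results of these data known. Named were the 10 genes, up to 4 genes per list with the largest difference among those called, 10 genes by role, and the 3 genes most like MPC3. The strain marker list supplied STE3 and URA3. Chromosomal neighbours, HAP3, GCV3, SIP4, CIT3, PDC2, ILV2, ACS2, YEA6 and EAF5 were named after their values were seen. Alternatives were another offset, normalization, filter, spread model and probe set choice, removal of the length trend, leaving out single arrays, and a block for the replicate number. Scanner files, detection calls and sequences were not used here.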

Additional observations from a re-analysis of the deposited data

How the results depend on the processing

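The signs of all 10 genes were the same under the 16 alternatives run. With 50 added to every signal the log2 difference of MPC3 was 2.68, and with the length trend removed it was 3.24. The median of the 10 genes was 0.59 with median centring and 0.54 with the length trend removed. With the length trend removed GCV3 turned from a fall to a rise (0.17). The difference of CIT1, which passed neither with nor without the trend, was then -0.010. The cause of the length trend was not tested. The count of called probe sets was between 3624 and 3758 with an array left out, against 3857, and the count of called genes on the pathway lists between 49 and 53, against 54. Median centring shifted the median of all probe sets from -0.08 to -0.13. Same-numbered replicates correlated weakly in their deviations from the group means (0.05, 0.07 and 0.02), and 2 of 3 correlated best with their own number. With 3 arrays per group this cannot decide whether same-numbered samples share a culture or a batch. With the replicate number as a block 3933 probe sets were called, the median of the 10 genes was 0.64 and that of MPC3 alone 2.92, and CIT1 passed (adjusted p = 0.037). Detection near background limits none of the 10 genes.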
